A study of Rattus norvegicus with 16 samples.

Results

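Kidneys of diabetic rats given sinomenine (SIN) at 40 mg/kg per day were compared with kidneys of diabetic rats given 20 mg/kg per day, so that the higher dose was read against the lower one and not against untreated diabetes. The comparison used 8 of the 16 rats in the series, with 4 rats at each dose, chosen by their labelled dose alone. Few genes separated the doses. Of 15657 genes tested, 1 passed an adjusted p below 0.05, the ribosomal protein L12-like gene LOC102555453, and its level was lower at 40 mg/kg. At an unadjusted p below 0.05, 779 genes (4.98% of those tested) differed, and that threshold passes 5% of genes when no gene differs.

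All rats were male Sprague Dawley animals aged 6 to 8 weeks at entry. Both SIN groups and the diabetic nephropathy (DN) group received 1 injection of streptozotocin at 45 mg/kg, a toxin of the insulin-producing beta cells. Their blood glucose 1 week later was above 16.7 mmol/L, and they ate a diet rich in sugar and fat. The SIN groups then received the drug by gavage each day for 8 weeks, whereas normal rats had a buffer injection and a normal diet. The DN and normal groups, each of 4 rats, are given here only as background levels. Streptozotocin removes beta cells directly, so the model is one of insulin deficiency with a rich diet, and every diabetic group shares it.

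Sinomenine is an alkaloid of the climbing plant Sinomenium acutum and is known as an anti-inflammatory and immune-modulating drug. In the diabetic kidney, high glucose loads the proximal tubule, which reabsorbs filtered glucose, salt and amino acids. The glomerulus thickens its basement membrane there, and inflammatory signalling through JAK-STAT and NF-kB is engaged. A dose comparison asks whether any of these gene groups stood at a different level after more drug.

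Library totals were 19788171 to 25217030 estimated counts in the SIN (20 mg/kg) rats and 19863228 to 21069327 in the SIN (40 mg/kg) rats. Expression is given as CPM, the counts of a gene scaled to a common library size and composition, and rats are numbered 1 to 4 within each group. Ranked over genes, 2 rats of one dose correlated at 0.973 to 0.987, and 2 rats of different doses also at 0.973 to 0.987. Kidney markers were present in all 8 rats, with Slc34a1 at 3218 to 5855 CPM, Umod at 1367 to 2076, Aqp2 at 550.2 to 1236 and Nphs1 at 34.6 to 55.2. Pvalb, a marker of the distal tubule, was at 0 to 0.0506 CPM. Library serial numbers ran consecutively within each group, so library order and dose cannot be told apart. In whole kidney, fewer cells of a type and less RNA per cell cannot be told apart either.

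LOC102555453 (ENSRNOG00000028993) is annotated as a gene like that of ribosomal protein L12, a protein of the large ribosomal subunit. Its levels were 85.0, 89.8, 82.4 and 87.2 CPM in the SIN (20 mg/kg) rats. In the SIN (40 mg/kg) rats they were 42.9, 39.0, 47.4 and 39.3 CPM. The groups did not overlap, and both were tight. The log2 fold change of SIN (40 mg/kg) over SIN (20 mg/kg) was -1.04 (SE 0.0903, adjusted p = 0.00584, edgeR quasi-likelihood test). Genes called at an adjusted p below 0.05 with at least a 1-unit log2 fold change were 0.00639% of those tested, and this was the only one. The call was lost without rat 2 of the SIN (40 mg/kg) group (log2 fold change -1.0, adjusted p = 0.0656).

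The same gene also split the groups that had no drug. Normal rats stood at 77.7, 31.2, 68.2 and 30.3 CPM, and DN rats at 44.1, 89.1, 80.7 and 47.1 CPM. Over all 16 rats the levels fell in a lower range of 30.3 to 47.4 CPM, held by 8 rats, and an upper range of 68.2 to 89.8 CPM, held by the other 8. In the lower range were 2 normal and 2 DN rats, none at 20 mg/kg and all 4 at 40 mg/kg. A rat without drug was thus as often in the lower range as in the upper one. In a fit of all 16 rats, where the spread within the normal and DN groups enters, the adjusted p for the dose difference was 0.784.

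A second row of the table carries the same symbol (ENSRNOG00000029115). It read 9.68, 9.19, 13.8 and 15.8 CPM in the SIN (20 mg/kg) rats and 3.75, 4.55, 0.886 and 3.0 CPM in the SIN (40 mg/kg) rats. The same 8 rats of the 16 were low for it, at 0.886 to 4.55 CPM, and the same 8 high, at 9.19 to 16.1 CPM. Its log2 fold change was -2.0 (SE 0.396, adjusted p = 0.961). Rpl12 itself (ENSRNOG00000016220) went the other way, at 220 ± 10.6 CPM (SD, n = 4) after 20 mg/kg against 248 ± 5.28 CPM (SD, n = 4) after 40 mg/kg. These groups did not overlap (log2 fold change 0.17, SE 0.0777, unadjusted p = 0.0552, edgeR quasi-likelihood test). Rpl12 also ran opposite to LOC102555453 without the drug. DN rats 1 and 4, in the lower range of LOC102555453, had Rpl12 at 261 and 265 CPM, against 211 and 208 CPM in DN rats 2 and 3. Normal rats 2 and 4, also in that lower range, had 222 and 195 CPM, against 187 and 161 CPM in normal rats 1 and 3. The 3 rows summed to 318 ± 14.1 CPM (SD, n = 4) at 20 mg/kg and 293 ± 5.5 CPM (SD, n = 4) at 40 mg/kg, again without overlap. Reads of near-identical copies can be divided between rows by the estimate of counts, so the level of each row is uncertain.

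**Figure D1:**
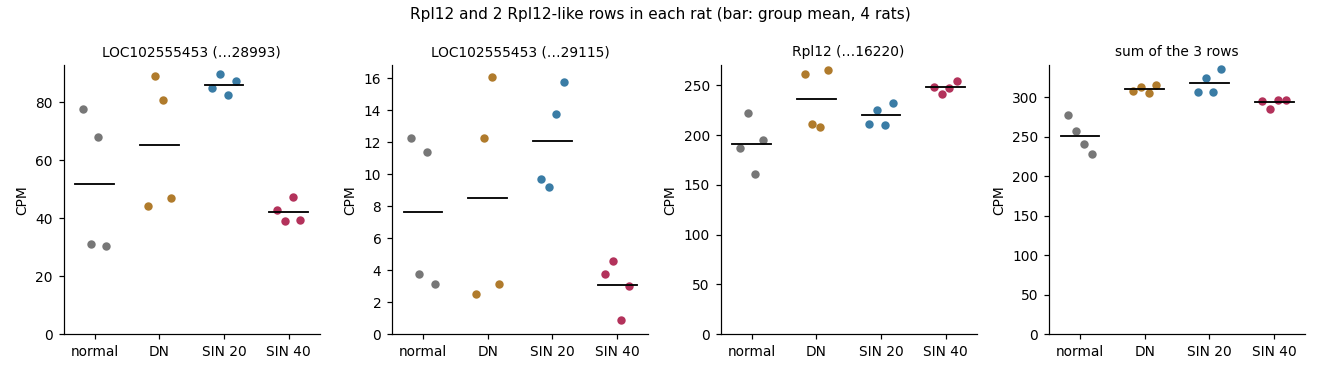
CPM (linear axis from 0) of the 2 rows named LOC102555453, of Rpl12 and of their sum, in each of the 16 rats by group, with points for rats and bars for the means of 4. Both LOC102555453 rows split the normal and DN groups 2 against 2, while all SIN (20 mg/kg) rats were in the upper range and all SIN (40 mg/kg) rats in the lower one.

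RefSeq places LOC102555453 on chromosome X and Rpl12 on chromosome 3 of the rat assembly GRCr8, and its table does not say which of the 2 rows of the deposited table is the locus on X. The deposited table was made on Rnor_6.0 and gives no coordinates. The 250 bases before each start and the 50 bases from it, the latter in capitals, are given below for the RefSeq loci. Read position by position without gaps, 28.3% of the 300 bases were the same. Such a reading misses matches that lie at a shifted position, so likeness of the transcribed starts was not tested. The X-linked window held 34.7% G or C and the Rpl12 window 58.3%. LOC102555453 is at chrX:3750778-3751077 on the minus strand and Rpl12 at chr3:36661690-36661989 on the plus strand.
LOC102555453: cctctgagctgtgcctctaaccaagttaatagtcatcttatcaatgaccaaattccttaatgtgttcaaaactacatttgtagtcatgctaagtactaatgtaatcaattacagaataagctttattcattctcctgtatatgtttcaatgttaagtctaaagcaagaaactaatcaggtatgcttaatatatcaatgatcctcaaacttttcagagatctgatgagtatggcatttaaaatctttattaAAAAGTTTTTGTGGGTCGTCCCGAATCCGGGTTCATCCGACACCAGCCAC
Rpl12: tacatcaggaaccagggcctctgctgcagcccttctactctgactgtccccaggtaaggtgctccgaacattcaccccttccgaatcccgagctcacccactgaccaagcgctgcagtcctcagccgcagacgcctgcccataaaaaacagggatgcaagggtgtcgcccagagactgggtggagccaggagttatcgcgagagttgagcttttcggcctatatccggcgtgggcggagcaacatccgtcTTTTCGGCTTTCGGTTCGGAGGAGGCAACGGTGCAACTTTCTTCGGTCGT

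Of the 779 genes at an unadjusted p below 0.05, 377 were higher at 40 mg/kg (2.41%) and 402 were lower (2.57%). Of these, 113 also had a log2 fold change of 1 or more either way (0.722%), 36 higher (0.23%) and 77 lower (0.492%). The groups did not overlap in 519 genes (3.31%), 291 higher (1.86%) and 228 lower (1.46%). Over all genes tested the median log2 fold change was -0.00694. DESeq2 called 17 genes at an adjusted p below 0.05 (0.109%), and the exact test of edgeR called 6 (0.0383%). Every gene named from here on had an adjusted p of at least 0.313 in the quasi-likelihood test, so its values are a description of 8 rats.

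**Figure D2:**
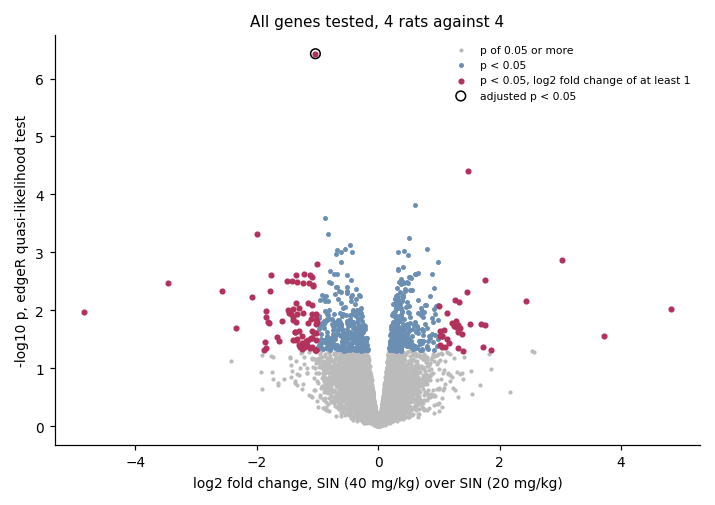
Log2 fold change of SIN (40 mg/kg) over SIN (20 mg/kg) against -log10 of the unadjusted p for the 15657 genes tested. Blue and red points are the 779 genes with p below 0.05, red those whose log2 fold change was also 1 or more either way, and the ring marks LOC102555453 (ENSRNOG00000028993), the only gene with an adjusted p below 0.05.

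The level in untreated DN rats was set beside both doses. Among the 779 genes, the DN mean was between the means of the doses in 465 (59.7%), against 20.8% of all genes tested. Choosing genes for a wide gap between the doses makes a position between them likelier, so this share is not a result about dose. Levels ran in the order DN, 20 mg/kg, 40 mg/kg, rising or falling, in 185 of the 779 (23.7%) and in 38.4% of all genes tested. The order DN, 40 mg/kg, 20 mg/kg held in 129 (16.6%) and in 40.8% of all genes tested.

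Slc6a6, the taurine transporter, which carries an osmolyte into tubule cells, was higher at 40 mg/kg. It read 157, 141, 145 and 165 CPM at 20 mg/kg and 201, 256, 247 and 220 CPM at 40 mg/kg, without overlap (log2 fold change 0.60, SE 0.103, adjusted p = 0.796). DESeq2 gave it an adjusted p of 0.000232 and the exact test of edgeR 0.00865. DN rats spanned 143 to 190 CPM and normal rats 146 to 256 CPM. The SIN (40 mg/kg) levels thus lay within the normal range, as did some SIN (20 mg/kg) levels.

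Enc1, which encodes an actin-binding protein, was lower at 40 mg/kg, with 20.8, 17.7, 14.6 and 16.1 CPM at 20 mg/kg against 11.8, 8.39, 8.35 and 9.29 CPM. Its log2 fold change was -0.88 (SE 0.160, adjusted p = 0.961, DESeq2 adjusted p = 0.00253). Abca1, which exports cholesterol from cells, read 16.3, 14.1, 14.6 and 13.3 CPM at 20 mg/kg and 17.3, 28.3, 25.7 and 31.2 CPM at 40 mg/kg (0.81, SE 0.175, DESeq2 adjusted p = 0.0200). The groups did not overlap, though rat 1 at 40 mg/kg was close to the lower dose, and DN rats spanned 13.1 to 33.7 CPM. Acvr1b, a receptor for activin, was 71.3 ± 1.73 CPM (SD, n = 4) at 20 mg/kg and 90.1 ± 2.89 CPM (SD, n = 4) at 40 mg/kg, apart in all rats (0.33, SE 0.0724).

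Genes with a symbol, an unadjusted p below 0.05, a log2 fold change of 1 or more either way, no overlap and a mean of at least 1 CPM in the higher group numbered 20, of which 6 were higher and 14 lower. Most were expressed at a few CPM. Among those higher, Cylc1, a gene of the sperm head, read 1.16, 0.517, 0.152 and 0 CPM at 20 mg/kg and 4.59, 3.42, 3.17 and 4.26 CPM at 40 mg/kg (3.02, SE 0.692). Slc39a12, a zinc transporter, was 0.301 to 1.36 CPM against 1.69 to 4.55 CPM (1.76, SE 0.453). Osr2, a transcription factor of kidney and limb development, was 0.658 to 2.58 CPM against 3.13 to 5.42 CPM (1.26, SE 0.372).

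Lower at 40 mg/kg among these 20 were Cited1, a transcriptional co-regulator of the embryonic nephron, at 3.91 to 6.20 CPM against 1.37 to 3.19 CPM (-1.12, SE 0.280). Adra1d, an adrenaline receptor of vascular smooth muscle, was 1.67 to 4.73 CPM against 0.484 to 1.54 CPM (-1.50, SE 0.473). Flrt3, a cell adhesion protein, was 1.67 to 4.69 CPM against 0.980 to 1.32 CPM (-1.35, SE 0.339). The most negative was LOC100362366, at 4.81 to 13.6 CPM against 0 to 2.94 CPM (-3.46, SE 0.914), and it was listed at 0 in all 4 normal rats. Untreated DN rats read 13.2, 12.7, 3.36 and 0 CPM, a range that reached both doses. Without rat 3 of the SIN (40 mg/kg) group its log2 fold change was -5.36.

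Gene groups were then read through 47 lists. They held 811 tested rows, of which 54 (6.66%) had an unadjusted p below 0.05, 33 higher and 21 lower, against the 4.98% of all genes tested. No listed gene passed the adjusted test by edgeR's quasi-likelihood fit. In 19 lists no tested member had a p below 0.05. For the 36 lists with at least 10 tested members, medians of the log2 fold change ran from -0.206 to 0.269.

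**Figure D3:**
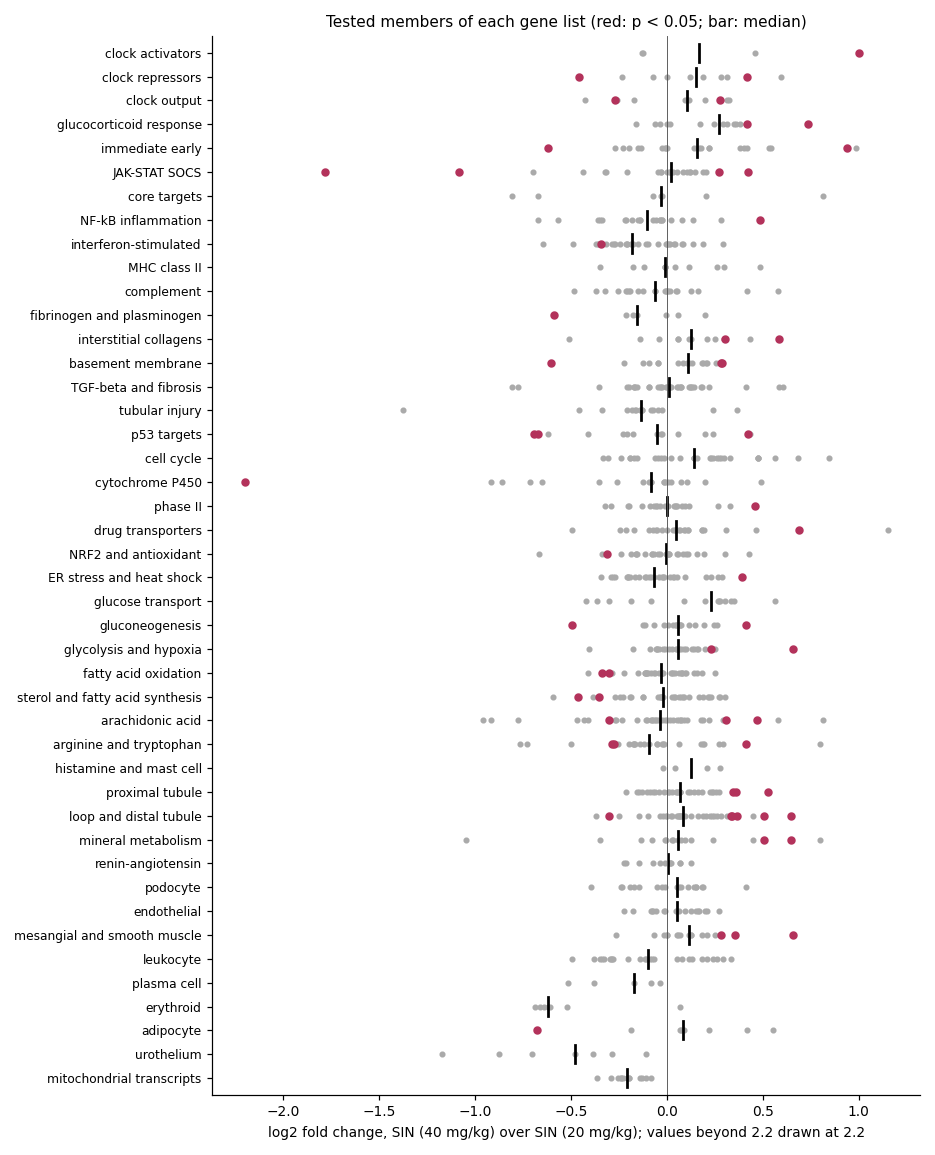
Log2 fold change of SIN (40 mg/kg) over SIN (20 mg/kg) for every tested member of each list with at least 4 tested members, with red points for an unadjusted p below 0.05 and a bar for the list's median. Medians lay near 0 for most lists, and red points stood on both sides.

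In the JAK-STAT list, 4 of 26 tested members (15.4%, against 4.98% of all genes tested) had a p below 0.05. Of these, 2 were higher and 2 lower, and the list's median was 0.02. Leaving out 1 rat at a time gave 3 to 6 members. Socs3, the feedback inhibitor that JAK-STAT signalling induces, read 10.6, 5.53, 3.95 and 5.74 CPM at 20 mg/kg and 3.38, 3.28, 2.57 and 3.05 CPM at 40 mg/kg. The groups did not overlap (-1.08, SE 0.290). Rat 1 of the SIN (20 mg/kg) group was the highest of the 8, and without it the value was -0.73. DN rats spanned 4.92 to 7.33 CPM.

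Lif, a cytokine of the IL-6 family, was highest in that same rat, with 2.45, 1.19, 1.01 and 0.564 CPM at 20 mg/kg and 0.581, 0.281, 0.327 and 0.339 CPM at 40 mg/kg (-1.78, SE 0.492; -1.28 without it). Its receptor Lifr was 71.9 ± 12.3 CPM (SD, n = 4) and 96.8 ± 22.7 CPM (SD, n = 4), overlapping (0.42, SE 0.177). Socs7 was 51.4 ± 2.38 and 62.4 ± 3.28 CPM (SD, n = 4 each), apart in all rats (0.27, SE 0.0803). Stat3, the transcription factor of the pathway, was 133 to 158 CPM against 128 to 154 CPM (-0.03, SE 0.0941), and Jak2 was 14.9 to 25.3 CPM against 18.6 to 25.2 CPM (0.20, SE 0.181). Cish, another feedback inhibitor, was 25.1 to 47.1 CPM against 20.9 to 38.3 CPM (-0.32, SE 0.215).

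Inflammation genes gave few differences. In the NF-kB and inflammasome list, 1 of 22 tested members (4.55%, against 4.98% of all genes tested) had a p below 0.05. That was Nfkbia, the inhibitor of NF-kB, at 39.9, 38.4, 28.9 and 38.8 CPM against 35.6, 52.5, 64.4 and 52.6 CPM (0.48, SE 0.175), with overlap through rat 1 of the SIN (40 mg/kg) group. Nfkb1 was 72.3 to 78.4 CPM and 69.4 to 75.0 CPM. On this list, 5 of the 22 log2 fold changes were above 0 (22.7%, against 48.6% of all genes tested), and the median was -0.10. Of 9 core targets named by the study (CXCL8, also named there, was not analysed here), 7 were tested and 0 had a p below 0.05. Il1b was 1.03 to 1.85 CPM against 0.475 to 1.36 CPM (-0.67, SE 0.366), and Tnf was at 0 in all 8 rats. Ptgs2, the inducible cyclooxygenase, was 2.47 to 4.30 CPM against 1.06 to 11.2 CPM (0.81, SE 0.517, and 0.32 without rat 4 of the SIN (40 mg/kg) group).

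No tested member of the MHC class II list (11), the complement list (23) or the leukocyte list (26) had a p below 0.05. In the interferon list, 1 of 34 did (2.94%, against 4.98% of all genes tested). That was Cxcl11, a chemokine induced by interferon, at 16.8 to 21.9 CPM against 13.0 to 17.2 CPM (-0.34, SE 0.137). With 1 rat left out the count ran from 0 to 9 and the list's median from -0.41 to 0.04, with 9 and -0.41 without rat 2 of the SIN (40 mg/kg) group and 0.04 without its rat 1. Leukocyte markers were low at both doses, with Ptprc at 6.47 to 14.7 CPM over the 8 rats. Cd3e, a T cell marker, was 1.51 to 1.77 CPM at 20 mg/kg and 1.0 to 1.26 CPM at 40 mg/kg, without overlap (-0.49, SE 0.242). Groups did not overlap in 1 of the 26 tested leukocyte genes, and in 3.31% of all genes tested.

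The p53 list held 3 of 15 tested members (20.0%, against 4.98% of all genes tested) with a p below 0.05, and 3 to 5 with 1 rat left out. All 3 had groups that did not overlap, as did 3.31% of all genes tested. DESeq2 called all 3, and 0.109% of all genes tested. Gadd45a, a growth arrest and stress gene, read 110, 86.7, 96.1 and 71.7 CPM at 20 mg/kg and 65.9, 47.0, 55.5 and 61.2 CPM at 40 mg/kg (-0.67, SE 0.146, DESeq2 adjusted p = 0.0323). DN rats spanned 46.5 to 60.7 CPM and normal rats 72.5 to 97.8 CPM, so the SIN (40 mg/kg) levels overlapped those of DN and the SIN (20 mg/kg) levels those of normal rats.

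Plk2, a stress-induced kinase, was 14.9, 19.6, 15.6 and 17.0 CPM against 8.98, 9.47, 10.3 and 13.1 CPM (-0.69, SE 0.153, DESeq2 adjusted p = 0.0444). Sesn1, an antioxidant p53 target, differed in the other direction, with 33.4, 31.9, 33.9 and 38 CPM against 45.1, 46.2, 43.0 and 50.6 CPM (0.42, SE 0.0924, DESeq2 adjusted p = 0.0444). Cdkn1a, the cell cycle inhibitor p21, was 7.53 to 13.3 CPM against 6.39 to 8.96 CPM (-0.41, SE 0.189, and -0.25 without rat 2 of the SIN (20 mg/kg) group). The list's members therefore differed in both directions. Of 31 tested cell cycle genes, 0 had a p below 0.05. Myc, a growth-promoting transcription factor on the immediate-early list, was 15.4, 10.3, 10.7 and 13.2 CPM against 9.08, 8.86, 8.63 and 5.95 CPM, apart in all rats (-0.62, SE 0.186).

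**Figure D4:**
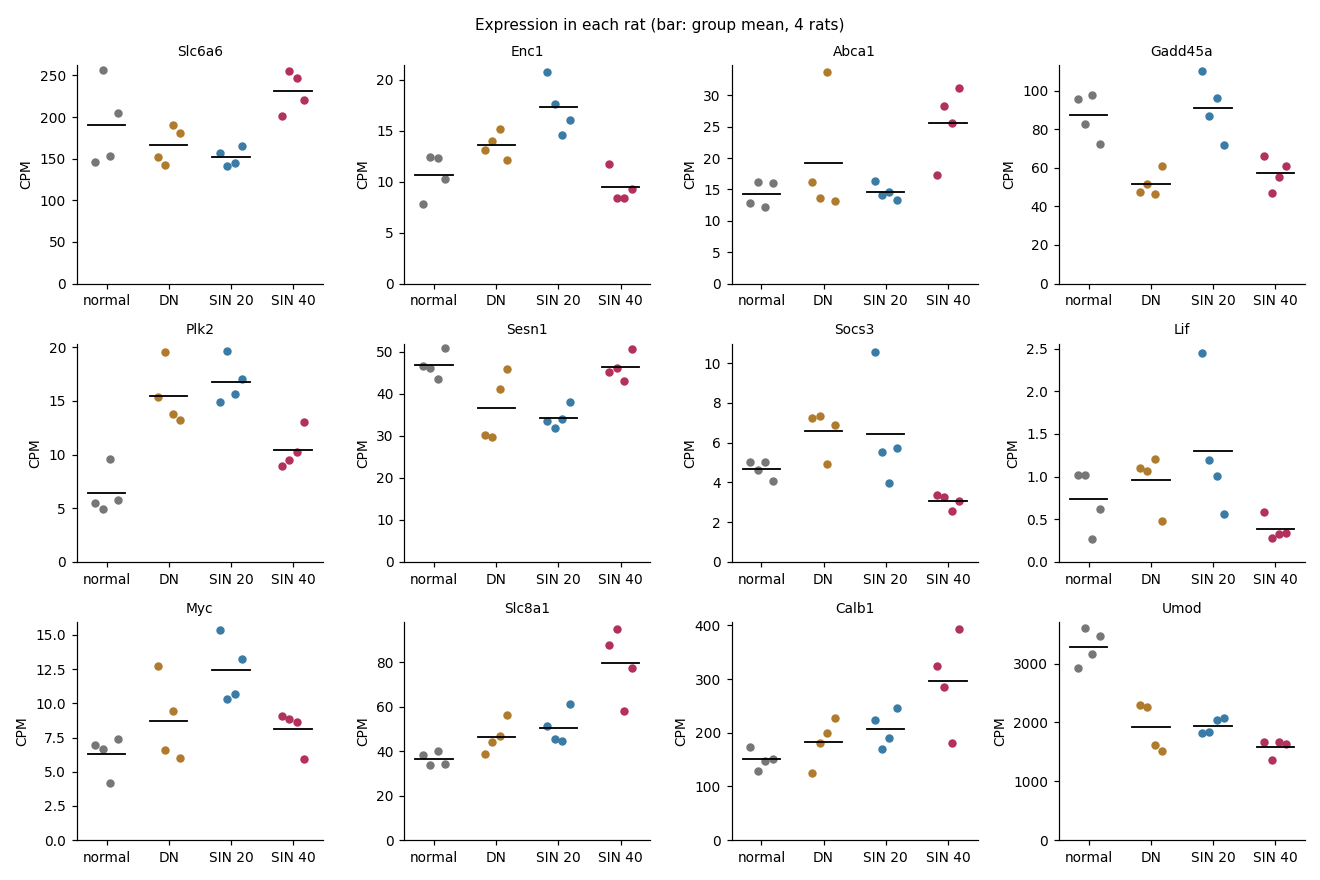
CPM (linear axes from 0) of 12 genes in each of the 16 rats by group, with points for rats and bars for the means of 4. Slc6a6, Enc1, Abca1, Gadd45a, Plk2, Sesn1, Socs3, Myc and Umod have no overlap between the doses, whereas Lif, Slc8a1 and Calb1 overlap.

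In the list of the loop, distal tubule and collecting duct, 5 of 35 tested members were higher and 1 was lower at a p below 0.05. Together these were 17.1%, against 4.98% of all genes tested. Of the 35 log2 fold changes, 27 were above 0 (77.1%, against 48.6% of all genes tested), and the median was 0.08. Leaving out 1 rat at a time gave 2 to 9 members. Slc8a1, the sodium-calcium exchanger of the distal tubule, read 51.2, 45.5, 44.5 and 61.0 CPM against 87.8, 95.0, 57.8 and 77.5 CPM (0.65, SE 0.160). Calb1, the calcium-binding protein of the same cells, was 224, 170, 190 and 246 CPM against 325, 286, 181 and 393 CPM (0.51, SE 0.212). Rat 3 of the SIN (40 mg/kg) group was the lowest of its group for both and made the overlap.

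The epithelial sodium channel gave Scnn1b at 38.5 ± 4.58 and 49.0 ± 7.17 CPM (SD, n = 4 each; 0.34, SE 0.124) and Scnn1g at 36.1 ± 3.82 and 45.7 ± 6.97 CPM (SD, n = 4 each; 0.33, SE 0.128). Its alpha subunit Scnn1a was 59.9 to 83.8 CPM against 64.0 to 102 CPM (0.07, SE 0.163). Slc12a3, the thiazide-sensitive salt transporter, was 251 ± 38.2 and 325 ± 71.9 CPM (SD, n = 4 each; 0.37, SE 0.162). Umod, the most secreted urinary protein, made in the thick ascending limb, was the lower one, at 1818, 1838, 2039 and 2076 CPM against 1669, 1367, 1660 and 1630 CPM (-0.30, SE 0.103).

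Among 33 tested proximal tubule genes, 3 were higher at a p below 0.05 and 0 lower (9.09%, against 4.98% of all genes tested). The list's median was 0.07, or -0.05 without rat 1 of the SIN (40 mg/kg) group. Slc6a19, the neutral amino acid transporter, was 234, 302, 319 and 220 CPM against 519, 390, 329 and 318 CPM (0.53, SE 0.176). Slc13a1, the sulfate transporter, was 247 ± 22.1 and 319 ± 52.3 CPM (SD, n = 4 each; 0.36, SE 0.123), and Slc9a3, the sodium-proton exchanger, 214 ± 33.8 and 273 ± 18.9 CPM (SD, n = 4 each; 0.34, SE 0.117). Rat 1 of the SIN (40 mg/kg) group was highest for both Slc6a19 and Slc13a1, whose values without it were 0.36 and 0.24. None of 14 tested glucose transporters had a p below 0.05, nor did any of 12 renin-angiotensin genes.

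Tubular injury genes varied within each dose. Of 16 tested, 0 had a p below 0.05 and the median was -0.13, or -0.22 to -0.07 with 1 rat left out. Log2 fold changes above 0 were found for 2 of the 16 (12.5%, against 48.6% of all genes tested). Havcr1, which encodes kidney injury molecule 1, read 33.1, 12.2, 2.23 and 4.89 CPM against 2.01, 2.86, 0.886 and 14.7 CPM (-1.37, SE 0.916). Without rat 1 of the SIN (20 mg/kg) group its log2 fold change was -0.35, and without rat 4 of the SIN (40 mg/kg) group -2.78. Lcn2, encoding the injury protein NGAL, was 4.35 to 17.8 CPM against 2.01 to 24.5 CPM (0.24, SE 0.637, and -0.44 without rat 3 of the SIN (40 mg/kg) group). Spp1, osteopontin, was 529 to 1780 CPM against 239 to 1174 CPM (-0.46, SE 0.484, and 0.01 without rat 1 of the SIN (20 mg/kg) group). For all 3, rats of one dose spread over a wider range than the gap between doses.

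In the matrix and vessel lists, none of 37 tested TGF-beta and fibrosis genes had a p below 0.05, and none of 19 podocyte or 19 endothelial genes. Among 13 tested interstitial collagens, 2 were higher. Col14a1 was 4.15 to 5.20 CPM against 5.41 to 9.49 CPM (0.59, SE 0.209) and Col12a1 was 116 to 162 CPM against 154 to 174 CPM (0.31, SE 0.117). Of 18 basement membrane genes, Col4a4 (0.29, SE 0.122) and Lamb2 (0.28, SE 0.120), chains of the mature glomerular membrane, were higher, both with overlap. Among 17 smooth muscle and mesangial genes, 3 contractile genes were higher, Myh11 at 20.3 to 27.7 CPM against 29.7 to 37.5 CPM (0.36, SE 0.123), Lmod1 at 1.72 to 2.58 CPM against 2.59 to 4.20 CPM (0.66, SE 0.241) and Smtn with overlap (0.28, SE 0.122). DN rats spanned 23.6 to 198 CPM for Myh11, wider than either dose.

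The circadian clock drives daily rhythms in kidney transport, and the labels used here give no hour of sampling. Npas2, a clock activator, read 1.55, 1.39, 1.01 and 1.27 CPM at 20 mg/kg and 1.64, 3.61, 2.1 and 3.19 CPM at 40 mg/kg, just apart (1.00, SE 0.307). It was 4.56 to 7.43 CPM in DN rats and 12.3 to 19.5 CPM in normal rats, so both doses lay below both. Arntl, its partner gene, was 2.43 to 6.49 CPM against 4.85 to 7.60 CPM (0.46, SE 0.298, and 0.78 without rat 1 of the SIN (20 mg/kg) group), and Clock was 31.1 to 56.9 CPM against 28.7 to 49.2 CPM (-0.13, SE 0.219). Of 4 tested activators, Npas2 was the only one with a p below 0.05.

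Among 10 tested clock repressors, 2 had a p below 0.05 (20.0%, against 4.98% of all genes tested), and 0 to 3 with 1 rat left out. Per1 was higher, at 43.9, 66.5, 60.1 and 79.5 CPM against 72.6, 83.7, 97.3 and 81 CPM (0.42, SE 0.167), and Bhlhe40 lower, at 73.3 to 105 CPM against 54.2 to 93.6 CPM (-0.46, SE 0.180). Per2 (-0.23, SE 0.170), Cry1 (0.00, SE 0.120) and Nr1d1 (0.32, SE 0.306, and 0.07 without rat 2 of the SIN (40 mg/kg) group) had overlapping groups. Of 11 output genes, 2 had a p below 0.05 (18.2%, against 4.98% of all genes tested), and 1 to 3 with 1 rat left out. Tef was higher (0.28, SE 0.121) and Hlf lower (-0.27, SE 0.0939). Rat 1 of the SIN (20 mg/kg) group was low for several clock genes together, with Tef at 146 CPM against 207 to 212 in the others of its group, Dbp at 95.4 against 202 to 210, Nr1d1 at 20.3 against 51.2 to 57.4 and Ciart at 2.84 against 7.68 to 8.61. Without that rat the log2 fold change of Tef was 0.17.

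**Figure D5:**
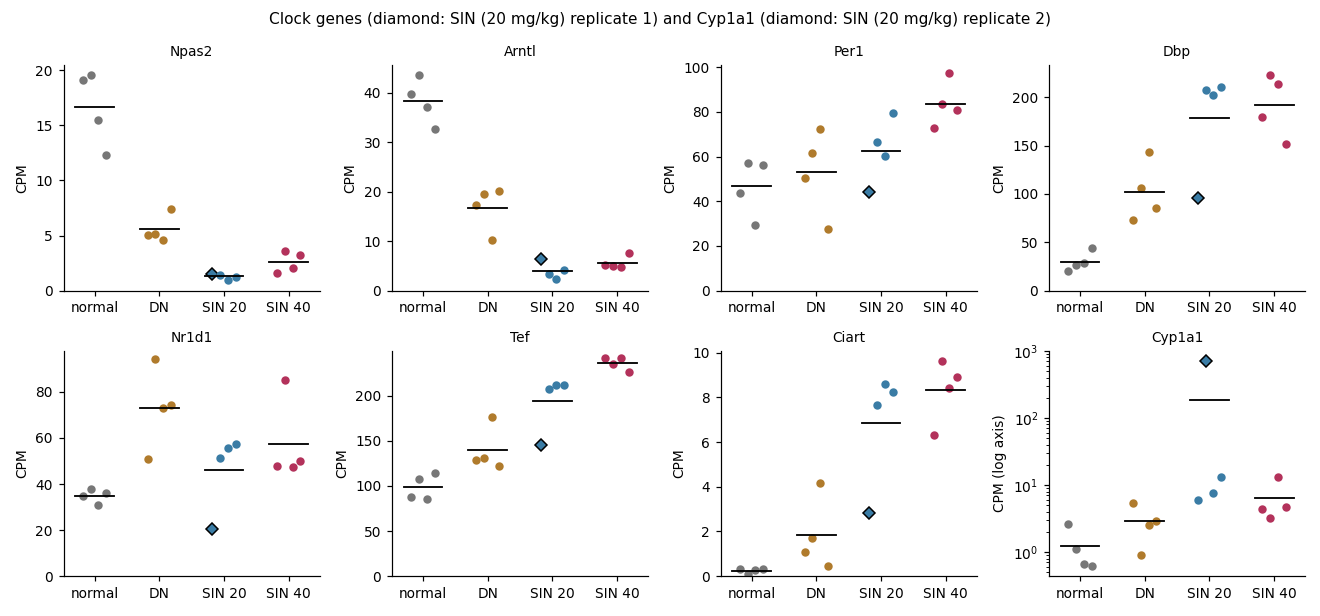
CPM of 7 clock genes (linear axes from 0) and Cyp1a1 (log axis) in each of the 16 rats by group, with bars for the means of 4. The diamond marks SIN (20 mg/kg) rat 1 in the clock panels, where it was lowest of its group for Per1, Dbp, Nr1d1, Tef and Ciart and highest for Npas2 and Arntl, and SIN (20 mg/kg) rat 2 in the Cyp1a1 panel, where it read 707 CPM.

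In the glucocorticoid list, 2 of 14 tested genes were higher at a p below 0.05 (14.3%, against 4.98% of all genes tested). With 1 rat left out, 1 to 5 members passed. The 2 were Per1 and Zbtb16, a transcription factor that glucocorticoids induce. Zbtb16 was 14.1 to 20.1 CPM against 16.4 to 41.7 CPM (0.74, SE 0.246, and 0.48 without rat 4 of the SIN (40 mg/kg) group). Tsc22d3, encoding the glucocorticoid-induced leucine zipper, was 57.7 to 83.1 CPM against 67.4 to 114 CPM (0.31, SE 0.171, and 0.18 without rat 3 of the SIN (40 mg/kg) group). Nr4a2, an immediate-early nuclear receptor, was 1.39 to 2.26 CPM against 1.48 to 5.53 CPM (0.94, SE 0.362).

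A single rat set the Cyp1a1 difference. Cyp1a1, the cytochrome that the aryl hydrocarbon receptor induces, read 5.89, 707, 7.60 and 13.1 CPM at 20 mg/kg and 4.44, 3.19, 13.2 and 4.69 CPM at 40 mg/kg. Its log2 fold change was -4.85 (SE 1.56) with rat 2 of the SIN (20 mg/kg) group and -0.48 without it. That rat also had the highest Nqo1 of the 8, at 29.2 CPM against 10.9 to 18.9 CPM in the others, and the highest Ahrr, at 0.915 CPM against 0.140 to 0.602 CPM. Its Tiparp (12.9 CPM) and Cyp1b1 (1.79 CPM) lay within the range of the rest, and Cyp1a2 was at 0 in all 8. On the list of cytochrome P450 genes of xenobiotic metabolism, no other of the 20 tested had a p below 0.05. Gstp1, a glutathione transferase, was 230 to 304 CPM against 266 to 449 CPM (0.46, SE 0.166), and the exporter Abcc5 was 14.5 to 23.7 CPM against 13.6 to 42.5 CPM (0.69, SE 0.306). Txn1, thioredoxin, was 40.8 to 54.4 CPM against 34.9 to 41.1 CPM (-0.31, SE 0.114).

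Cidec, a lipid droplet protein, was 85.1, 97.9, 118 and 115 CPM against 90.2, 55.7, 58.1 and 57.5 CPM (-0.68, SE 0.169), and 3 of the 4 higher-dose rats lay near the normal range of 52.4 to 57.6 CPM. Plin2, another lipid droplet protein, was 84.7 to 105 CPM against 63.0 to 98.3 CPM (-0.34, SE 0.144). Hmgcs1, an enzyme of cholesterol synthesis, had a log2 fold change of -0.35 (SE 0.116, groups apart). Cyp4a1, a fatty acid omega-hydroxylase, was 136 to 166 CPM against 101 to 156 CPM (-0.30, SE 0.131). At a p below 0.05 were 2 of 34 tested genes of fatty acid oxidation (5.88%) and 2 of 33 of sterol and fatty acid synthesis (6.06%). Of all genes tested, 4.98% were. The list medians were -0.03 and -0.02.

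Amino acid enzymes gave small differences. Aadat, the kynurenine aminotransferase, was 2125 to 2686 CPM against 1857 to 2214 CPM (-0.28, SE 0.108), and Oat, ornithine aminotransferase, was 832 to 1014 CPM against 642 to 889 CPM (-0.28, SE 0.119). Asl, argininosuccinate lyase, was 190 to 250 CPM against 229 to 418 CPM (0.41, SE 0.174), and the cationic amino acid transporter subunit Slc7a7 was 180 to 262 CPM against 251 to 417 CPM (0.41, SE 0.175). Rat 1 of the SIN (40 mg/kg) group held the top value of both, and without it they were 0.20 and 0.21. Gpt, alanine aminotransferase, was 12.5 to 18.8 CPM against 7.50 to 13.2 CPM (-0.50, SE 0.190). Of the arachidonic acid list, 3 of 38 tested genes had a p below 0.05 (7.89%, against 4.98% of all genes tested). They were Ptges (0.47, SE 0.186), which makes prostaglandin E2, Pla2g15 (0.31, SE 0.108) and Cyp4a1.

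Other single genes at a p below 0.05 were Herpud1 of the ER stress list, at 152 to 213 CPM against 213 to 283 CPM (0.39, SE 0.126), Ankrd37, a hypoxia target (0.66, SE 0.194), Pfkm, a glycolytic enzyme (0.23, SE 0.0898), and Plaur, the urokinase receptor, at 1.67 to 2.82 CPM against 1.40 to 1.64 CPM (-0.59, SE 0.255). The 13 mitochondrially encoded transcripts all had log2 fold changes below 0, whereas 48.6% of all genes tested were above 0. Of the 13, 0 had a p below 0.05. The median of these transcripts was -0.21, and -0.26 to -0.12 with 1 rat left out. Their summed level was 111080 to 126830 CPM at 20 mg/kg and 95687 to 117870 CPM at 40 mg/kg.

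The 7 tested red cell genes had a median of -0.62, or -0.02 without rat 2 of the SIN (20 mg/kg) group, and their summed level was 413 to 1405 CPM at 20 mg/kg and 434 to 765 CPM at 40 mg/kg. Hba-a1, an alpha globin, was 136 to 603 CPM against 137 to 291 CPM (-0.64, SE 0.432, and -0.02 without the same rat). The 7 tested urothelial and keratin genes had a median of -0.48 (-0.82 without rat 1 and -0.23 without rat 2 of the SIN (20 mg/kg) group) and summed to 6.71 to 25.9 CPM and 4.33 to 13.0 CPM. None of these had a p below 0.05. Th, the adrenal medulla marker, was at 0 in all 8 rats, and Ucp1 reached 0.145 CPM at most. Their part in the differences above was not tested.

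Rat 1 of the SIN (40 mg/kg) group stood apart from the other 3 of its group in several genes, Cidec, Slc13a1 and Slc7a7 above among them. Slc25a25, a mitochondrial ATP-magnesium carrier, read 199 CPM in it and 31.5, 34.6 and 42.3 CPM in the others, against 141, 131, 191 and 114 CPM at 20 mg/kg (-0.92, SE 0.541, and -2.0 without it). Without this rat edgeR called 5 genes at an adjusted p below 0.05, Slc25a25 (adjusted p = 0.0127) among them.

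Of the 74 rows of genes selected for description that had a p below 0.05, all 74 kept their direction when any 1 rat was left out, 37 kept a p below 0.05 each time, and 38 had groups that did not overlap. Selection for a low p in the same rats favours such agreement.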

How the data were processed

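Poly(A) RNA from kidneys was sequenced on an Illumina NovaSeq. The authors aligned reads to Rnor_6.0 with TopHat, and the submitters' processing notes also name Bowtie, RSEM and edgeR. The deposited table holds estimated counts (expected counts, not normalized) for 35849 genes, per the file headers. Columns of 4 libraries with no match to the labels and 5 columns of group means were not used. Estimated counts were rounded, genes were filtered by expression over the 8 rats, libraries were scaled by TMM, and edgeR 4.0.16 (R 4.3.3) fitted its quasi-likelihood test, two-sided, with Benjamini-Hochberg adjustment over all genes tested. CPM used TMM factors of all 16 rats. Nothing says how many separate litters or cages the rats came from, so p-values measure the spread between these rats. The script was tested on simulated data.

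The members, gene lists and comparisons were chosen with earlier results of these data known, and no list was tested as a set. Named genes were all genes with an adjusted p below 0.05; the 10 highest and 10 lowest log2 fold changes among genes with a symbol, p below 0.05, a log2 fold change of 1 or more, no overlap and at least 1 CPM; up to 4 genes of smallest p in each list; and core targets and clock genes. Uncharacterised symbols were mostly left out. Rpl12, Slc6a6, Enc1, Abca1, Acvr1b, Slc25a25, Havcr1, Lcn2, Spp1, Cdkn1a, Cish, Scnn1a, Hba-a1, Nqo1, Tiparp, Cyp1b1, Cyp1a2, Ahrr, Cd3e and Slc12a3 were chosen after their values were seen. Alternatives used DESeq2 1.42.0, the exact test of edgeR, RLE scaling, other count filters, all 16 rats, a replicate block and 1 rat left out. Promoter sequences came from RefSeq (GRCr8, 2 of 2 genes matched by symbol). Some genes that met these rules are not reported here.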

Additional observations from a re-analysis of the deposited data

Results flagged for a closer look

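Within a group of 4 rats, 1 rat stood far from the other 3 in 17 of 216 gene and group pairs (7.87%), where chance gives about 1 in 20. The pairs come from genes picked for description, some after their values were seen, so the share is not read against chance. In the SIN (20 mg/kg) group, replicate 1 was low for Tef (146 CPM against 207 to 212), Nr1d1 (20.3 against 51.2 to 57.4), Ciart (2.84 against 7.68 to 8.61), Dbp (95.4 against 202 to 210) and Myh11 (20.3 against 26.6 to 27.7). Replicate 2 was high for Cyp1a1 (707 CPM against 5.89 to 13.1), and replicate 3 was low for Nfkbia (28.9 CPM against 38.4 to 39.9).

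In the SIN (40 mg/kg) group, replicate 1 was high for Cidec (90.2 CPM against 55.7 to 58.1), Slc13a1 (397 against 287 to 296), Slc7a7 (417 against 251 to 270) and Slc25a25 (199 against 31.5 to 42.3). Replicate 2 was low for Umod (1367 CPM against 1630 to 1669) and high for Nr1d1 (85.1 against 47.4 to 49.8). Replicate 3 was high for Cyp1a1 (13.2 CPM against 3.19 to 4.69). Replicate 4 was low for Myc (5.95 CPM against 8.63 to 9.08) and high for Arntl (7.60 against 4.85 to 5.23) and Havcr1 (14.7 against 0.886 to 2.86).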

How the results depend on the processing

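The count of genes at an adjusted p below 0.05, 1 as reported, was 17 with DESeq2, 6 with the exact test of edgeR, and 0 with all 16 rats in one fit or with the replicate block (smallest adjusted p 0.434 and 0.382), where 877 and 516 genes had an unadjusted p below 0.05. With a log2 fold change of 1 or more as well, the counts were 4, 3, 0 and 0. With 1 rat left out, both counts ran from 0 to 5. The 0 came without SIN (40 mg/kg) replicate 2 (both counts, with 540 genes at an unadjusted p below 0.05) and without SIN (40 mg/kg) replicate 4 (with the fold, since LOC102555453 was then just under it), and the 5 without SIN (40 mg/kg) replicate 1. LOC102555453 had log2 fold changes of -1.04 with all 16 rats (adjusted p = 0.784) and -1.04 with the replicate block (adjusted p = 0.382), and -1.09 to -1.0 with 1 rat left out.

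At an unadjusted p below 0.05, the block gave 516 genes, 228 of them higher, and leaving out 1 rat gave 540 to 1083, with 244 to 560 higher. With the fold as well, no filter gave 378 genes (138 higher, 240 lower) and a minimum of 10 counts in every rat gave 56 (19 higher, 37 lower); those filters change how many low genes are tested. Leaving out 1 rat gave 121 to 192, with 23 to 69 higher and 78 to 123 lower. Replicate numbers do not pair the rats, since same-numbered rats correlated at -0.163 to -0.0133 in their deviations, so the replicate block is only another fit; the cause of its other counts was not tested. Of the 74 named rows with an unadjusted p below 0.05, 0 changed sign under any alternative run, whereas 14 of the 42 other named rows and 22 of the 47 list medians did under at least one. Of the named gene values under an alternative, 17 crossed to a lower adjusted p and 3 to a higher one. Depth limits genes of a few CPM. The adrenal list had no tested member left under the minimum of 10 counts.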
